A study of Schizosaccharomyces pombe with 4 samples.

Results

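The genes described here are 10 fission yeast (*Schizosaccharomyces pombe*) genes of the TOR and nitrogen response: the kinase genes *tor1* and *tor2*, the GTPase gene *rhb1*, the transcription factor gene *gaf1*, the ammonium transporter genes *amt1*, *amt2* and *amt3*, and the starvation-induced genes *isp4*, *isp6* and *isp7*. They were chosen by name, with no threshold on their values, though earlier results of these data were known. They are 10 of the 5129 protein-coding genes of the deposited table. All 10 had enough reads to be tested. Total RNA-seq libraries were made from 2 biological replicates of strain YAM2397, labelled *exo2*Δ, and from 2 biological replicates of strain YAM2394, labelled WT. Both strains are of mating type *h+* and carry the auxotrophic alleles *ade6-M210*, *ura4-D18* and *leu1-32*. In YAM2397 the *exo2* locus is given as *exo2Δ::kanMX4*, a replacement by a drug resistance cassette. Cells of both were taken in mid-log phase from YES, a rich medium, with no nitrogen starvation. Exo2 is the cytoplasmic 5′–3′ exoribonuclease of fission yeast, and XUTs are the Xrn1-sensitive unstable transcripts that the authors annotated from these same libraries.

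In fission yeast, nitrogen supply is read by TOR kinases. Tor2, in TOR complex 1 (TORC1), drives growth when nitrogen is plentiful and is activated by the small GTPase Rhb1, while Tor1, in TOR complex 2 (TORC2), is needed for sexual differentiation and survival under starvation and stress. Active TORC1 keeps the GATA-type transcription factor Gaf1 in the cytoplasm. When TORC1 is inhibited or nitrogen runs out, Gaf1 enters the nucleus, binds GATA motifs and activates genes of nitrogen scavenging, among them *isp7* and amino acid permease genes. Amt1, Amt2 and Amt3 are ammonium transporters, Isp4 is an oligopeptide transporter, Isp6 is a vacuolar serine protease, and Isp7 belongs to the 2-oxoglutarate and iron dependent oxygenases and regulates amino acid uptake. The *isp* genes take their name from their induction on starvation in sexual differentiation.

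GATA motifs before the start codons of these genes are shown because GATA is the class of site bound by Gaf1. The letters GATAAG were searched on both strands in the 1000 nt before each start codon, in the RefSeq genome ASM294v3. There were 3 matches before *amt3*, 2 before *isp7*, 1 each before *rhb1*, *gaf1*, *amt1*, *isp4* and *isp6*, and 0 before *tor1*, *tor2* and *amt2*. The windows take in annotated 5′ leaders of the transcripts, and 5 of the 10 matches lie inside them (both of *isp7*, that of *gaf1*, and those of *amt3* at 150 and 89 nt). The other 5 lie upstream of the annotated gene. Of these, the matches of *rhb1*, *isp6* and *isp4* lie inside other annotated features, the gene *wpl1* and the lncRNAs SPNCRNA.834 and SPNCRNA.1442. Annotated leaders ran from 76 nt in *rhb1* to 1340 nt in *isp7*, so the windows reach unequal distances upstream of the genes. For *isp7* the window lies wholly inside the leader, and no sequence upstream of the gene was searched. Of 5144 genes searched in the same way, 33.7% had at least 1 match, 6.63% had at least 2, and 0.816% had at least 3. The windows of the 3 genes with the highest log2 ratios below, and of *gaf1* itself, are printed with the motif in capitals and 12 nt on each side, each read 5′ to 3′ on the strand named with its position.
amt3, I:2927176-2927205, + strand, 742 nt before the start codon: tgtaaatctgagGATAAGtcatatgttctc
amt3, I:2926584-2926613, − strand, 150 nt before the start codon: ttttggtaaagaGATAAGaacttctctaca
amt3, I:2926523-2926552, + strand, 89 nt before the start codon: agataaatagagGATAAGtaaagaaagtct
isp7, I:4182336-4182365, + strand, 614 nt before the start codon: gcggattgaagaGATAAGaaaaaaaatttt
isp7, I:4182040-4182069, + strand, 318 nt before the start codon: ttgtgttggataGATAAGcaaattcaccgt
amt1, III:2068807-2068836, − strand, 982 nt before the start codon: agtaacgatcgaGATAAGcagagatctata
gaf1, III:1668963-1668992, + strand, 98 nt before the start codon: gcttgaaatgtgGATAAGaaagaaaaaggg
A match of 6 letters is a description of the sequence and does not show that Gaf1 binds there.

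The deposited signal is a density, the reads on a feature divided by its length, normalized by the authors on small nuclear and nucleolar RNAs, sn(o)RNAs. Summed over features, the libraries had 46964618 to 51019820 reads, of which 24899022 to 26817935 were on mRNAs. Overlapping features on the same strand share reads, so these sums count some reads more than 1 time. On this scale mRNAs as a class were higher in the *exo2*Δ-labelled libraries, with a median log2 ratio over WT of 1.08 (quartiles 0.64 and 1.48 over 5079 mRNAs tested). The median of 58 sn(o)RNAs, 0.028, is set by this scaling and is no independent contrast. Reads on sn(o)RNAs were 1883013 and 1887166 in the *exo2*Δ-labelled libraries, against 2720801 and 2553760 in WT. More mRNA and less sn(o)RNA cannot be told apart on this scale, nor can cell number and RNA per cell in such bulk samples. The targeted gene itself, *exo2*, kept its reads, and the direction of its ratio depends on the scaling. On the sn(o)RNA scale its density was 0.663 and 0.636 tag/nt in the *exo2*Δ-labelled libraries, from 2426 and 2382 reads, against 0.488 and 0.458 tag/nt in WT, from 2485 and 2181 reads (log2 ratio 0.46, SE 0.085, limma adjusted p = 0.00167). The log2 ratio was −0.036 with total reads (limma adjusted p = 0.740), −0.62 scaled on mRNAs, −0.71 with TMM and −0.75 with the median of ratios of all features (limma adjusted p = 0.00206, 0.00112 and 9.83e-04). Thus *exo2* was below the mRNA shift but far from absent. On the side of the label, the study's methods state that the strain was checked by PCR and northern blot. XUTs had 259019 and 274213 reads in the *exo2*Δ-labelled libraries and 96346 and 91865 in WT, although they were defined by this difference. Why reads remain on *exo2* was not tested, and *exo2*Δ below is the name on the label. Reads on rRNA took 36.1% and 34.2% in the *exo2*Δ-labelled libraries and 28.9% and 31.4% in WT, and the part of this difference in the results was not tested.

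All 10 genes rose in the *exo2*Δ-labelled libraries on the sn(o)RNA scale, and 0 fell (limma, adjusted p under 0.05, Benjamini-Hochberg over 8826 features). This count reads against a background of 88.1% of tested mRNAs higher and 4.31% lower, so 10 of 10 is close to what the mRNAs did as a class. In 7 of the 10 the ratio was above 2 as well (*rhb1*, *gaf1*, *amt1*, *amt3*, *isp4*, *isp6* and *isp7*), against 54.8% of mRNAs. For each of the 10 both libraries labelled *exo2*Δ lay above both WT libraries, as was so for 91.1% of mRNAs. The genes spread widely around the common shift, with log2 ratios between 0.52 (*tor1*) and 3.34 (*amt3*) and a median of 1.40. They are therefore described below by role, each with its densities, its log2 ratio, and its distance from the mRNA median of 1.08.

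**Figure D1:**
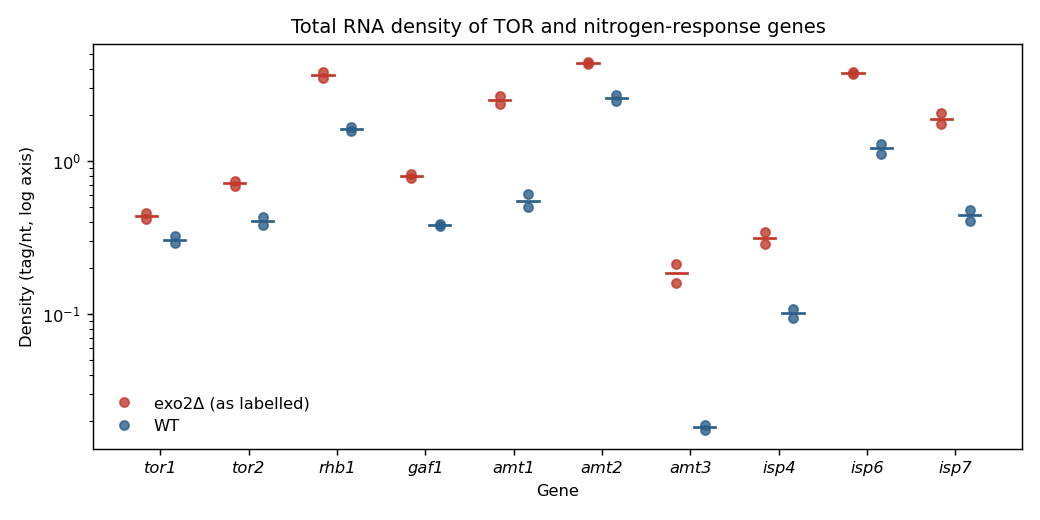
Total RNA density (tag/nt, log axis) of the 10 genes. Points are the 2 libraries of each genotype, the *exo2*Δ-labelled libraries in red on the left of each pair and WT in blue on the right, and lines are their means. The pairs of points do not overlap for any gene, and the gap is widest for *amt3*, at 0.213 and 0.160 tag/nt in the *exo2*Δ-labelled libraries and 0.0174 and 0.0189 tag/nt in WT.

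The TOR kinase genes rose less than the median mRNA. *tor1* (SPBC30D10.10c, chromosome II, 3075762 to 3083248, + strand, ASM294v2), which encodes the TORC2 kinase, had densities of 0.461 and 0.418 tag/nt in the *exo2*Δ-labelled libraries, against 0.323 and 0.290 tag/nt in WT. The lower library of the *exo2*Δ label stood above the higher WT library, and the log2 ratio was 0.52 (SE 0.11, limma adjusted p = 0.00264), which is 0.56 below the mRNA median. Only 19.9% of mRNAs had a lower ratio than *tor1*. The place of *tor1* among mRNAs ordered by density within a library was at 28.3% and 24.7% from the bottom in the *exo2*Δ-labelled libraries, and at 41.5% and 37.4% in WT.

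*tor2* (SPBC216.07c, chromosome II, 915085 to 922447, − strand), the gene of the TORC1 kinase, had 0.739 and 0.691 tag/nt in the *exo2*Δ-labelled libraries and 0.428 and 0.385 tag/nt in WT. The groups did not overlap, with a log2 ratio of 0.82 (SE 0.094, limma adjusted p = 1.40e-04), and 33.5% of mRNAs had a lower one. In every library *tor2* was above *tor1* in density, which is per length, so the 2 long genes can be compared directly. The log2 of *tor1* over *tor2* within a library was −0.68 and −0.72 in the *exo2*Δ-labelled libraries and −0.41 and −0.41 in WT. This ratio does not depend on how libraries are scaled, and the genotypes did not overlap, with a difference of −0.30 (exact permutation test, two-sided, p = 0.33 and adjusted p = 0.33 over 4 pairs). That p is the smallest that 2 against 2 libraries allow, and the pair cannot pass 0.05 in this design.

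*rhb1* (SPBC428.16c, chromosome II, 473670 to 474573, − strand), which encodes the GTPase that activates TORC1, had 3.48 and 3.85 tag/nt in the *exo2*Δ-labelled libraries, against 1.57 and 1.67 tag/nt in WT. The genotypes were well apart, with a log2 ratio of 1.17 (SE 0.075, limma adjusted p = 9.40e-06), 0.091 above the mRNA median. It is the only gene of the 10 whose coding sequence is split, into 3 exons, and the log2 ratios of the exons from the 5′ end were 1.07, 1.10 and 1.29. These were close to each other and to that of the whole gene, but they are not separate measurements. In replicate 1 labelled *exo2*Δ the exons had 987, 1706 and 1293 reads, which add up to more than the 2684 on the gene. Some reads are therefore counted in more than 1 exon. Its place in the density order hardly differed between genotypes, at 81.9% and 82.8% in the *exo2*Δ-labelled libraries and 80.6% and 81.6% in WT.

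*gaf1* (SPCC1902.01, chromosome III, 1665533 to 1669788, − strand), the gene of the GATA factor, had 0.820 and 0.776 tag/nt in the *exo2*Δ-labelled libraries, against 0.389 and 0.374 tag/nt in WT. The log2 ratio was 1.07 (SE 0.084, limma adjusted p = 2.18e-05), and 48.7% of mRNAs had a lower ratio. *gaf1* therefore moved as the median mRNA did, and its place in the density order was 45.8% and 42.5% in the *exo2*Δ-labelled libraries and 46.8% and 44.6% in WT.

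The ammonium transporter genes differed most among themselves. *amt1* (SPCPB1C11.01, chromosome III, 2068977 to 2071707, + strand) had 2.65 and 2.36 tag/nt in the *exo2*Δ-labelled libraries and 0.606 and 0.499 tag/nt in WT. The ratio of the means was 4.53, and the log2 ratio was 2.19 (SE 0.11, limma adjusted p = 4.52e-06), higher than in 94.3% of mRNAs. In density order *amt1* stood at 77.2% and 73.8% of mRNAs in the *exo2*Δ-labelled libraries and at 59.6% and 53.7% in WT.

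*amt2* (SPAC664.14, chromosome I, 1731083 to 1733268, + strand) was the most abundant of the 10 genes in both genotypes by whole-gene density, though not over coding exons. It rose least of the transporters. Its densities were 4.30 and 4.42 tag/nt in the *exo2*Δ-labelled libraries, against 2.72 and 2.47 tag/nt in WT. The log2 ratio was 0.75 (SE 0.070, limma adjusted p = 4.68e-05), which is 0.33 below the mRNA median.

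*amt3* (SPAC2E1P3.02c, chromosome I, 2924692 to 2927075, − strand) was the least abundant of the 10 in both genotypes and had the highest ratio. Its densities were 0.213 and 0.160 tag/nt in the *exo2*Δ-labelled libraries, from 433 and 333 reads, against 0.0174 and 0.0189 tag/nt in WT, from 49 and 50 reads. The WT libraries agree closely while the *exo2*Δ-labelled libraries differ from each other more, and the groups are far apart. The ratio of the means was 10.3 and the log2 ratio 3.34 (SE 0.22, limma adjusted p = 9.84e-06), 2.26 above the mRNA median and higher than in 98.7% of mRNAs.

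Within a library, where scaling has no effect, log2 of *amt1* over *amt2* was −0.70 and −0.91 in the *exo2*Δ-labelled libraries and −2.16 and −2.31 in WT, a difference of 1.43. *amt3* over *amt2* was −4.34 and −4.79 in the *exo2*Δ-labelled libraries and −7.29 and −7.03 in WT, a difference of 2.60. *amt3* over *amt1* was −3.64 and −3.88 in the *exo2*Δ-labelled libraries and −5.13 and −4.72 in WT, a difference of 1.16. The transporter RNAs thus lay closer together in level in the *exo2*Δ-labelled libraries, with *amt2* still highest and *amt3* still lowest. In all 3 pairs the genotypes did not overlap, and the exact permutation p was again 0.33, the smallest possible. Without the libraries numbered 1 or those numbered 2, the difference was 0.84 or 1.49 for *amt3* over *amt1*, and 2.24 or 2.95 for *amt3* over *amt2*. The coding sequences of these paralogs share 0 exact stretches of 50 nt, the length of a read, in each pair compared, *tor1* and *tor2* included. The authors' mapping tolerated mismatches, so this count does not exclude reads shared between paralogs.

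The 3 *isp* genes rose by more than the median mRNA on the sn(o)RNA scale. *isp7* (SPAC25B8.13c, chromosome I, 4179961 to 4183074, − strand), which encodes the oxygenase that regulates amino acid uptake, had 2.05 and 1.74 tag/nt in the *exo2*Δ-labelled libraries, against 0.478 and 0.406 tag/nt in WT. The ratio of the means was 4.29, and the log2 ratio was 2.1 (SE 0.12, limma adjusted p = 5.63e-06), higher than in 93.3% of mRNAs. It stood well above *tor2* and *gaf1* in the *exo2*Δ-labelled libraries, while in WT its range overlapped that of *tor2*.

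*isp6* (SPAC4A8.04, chromosome I, 2544815 to 2546981, + strand), the vacuolar protease gene, had 3.72 and 3.84 tag/nt in the *exo2*Δ-labelled libraries and 1.30 and 1.12 tag/nt in WT. Its log2 ratio was 1.65 (SE 0.086, limma adjusted p = 4.75e-06). *isp4* (SPBC29B5.02c, chromosome II, 1550293 to 1553467, − strand), the oligopeptide transporter gene, was far less abundant, with 0.344 and 0.286 tag/nt in the *exo2*Δ-labelled libraries and 0.109 and 0.0937 tag/nt in WT. Its log2 ratio, 1.64 (SE 0.15, limma adjusted p = 4.06e-05), was almost that of *isp6*. Of all mRNAs, 82.3% had a lower ratio than *isp6* and 81.8% a lower ratio than *isp4*.

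**Figure D2:**
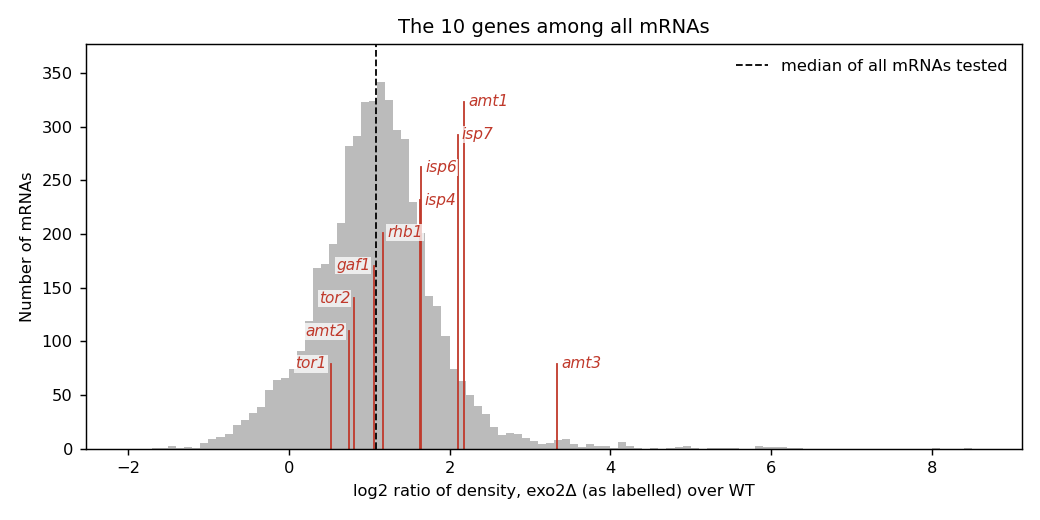
Log2 ratio of density, *exo2*Δ-labelled libraries over WT, for the 5079 mRNAs tested (grey, number of mRNAs per bin) with the 10 genes marked by red lines. The dashed line is the mRNA median of 1.08. *tor1*, *amt2* and *tor2* lie to its left, *gaf1* and *rhb1* close to it, and *isp4*, *isp6*, *isp7*, *amt1* and *amt3* to its right.

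Ordered by mean density, the 10 genes ran *amt2*, *isp6*, *rhb1*, *amt1*, *isp7*, *gaf1*, *tor2*, *tor1*, *isp4*, *amt3* in the *exo2*Δ-labelled libraries, and *amt2*, *rhb1*, *isp6*, *amt1*, *isp7*, *tor2*, *gaf1*, *tor1*, *isp4*, *amt3* in WT. Neighbours whose ranges overlapped were *isp6* and *rhb1* in the *exo2*Δ-labelled libraries, and *isp7* with *tor2* and *tor2* with *gaf1* in WT. The order is thus nearly that of WT, although the distances between its steps differ. Densities over coding exons alone gave log2 ratios within 0.037 of those over the whole genes for all 10. The order, however, is that of whole-gene densities. Over coding exons *rhb1* stood above *amt2*, at 8.38 and 9.06 against 5.10 and 5.20 tag/nt in the *exo2*Δ-labelled libraries. In WT the values were 3.76 and 4.08 against 3.18 and 2.92 tag/nt. Reads counted in more than 1 exon raise the *rhb1* value, so its place depends on the stretch measured.

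Since most mRNAs were higher on the sn(o)RNA scale, the genes were also tested after scaling the libraries so that the median mRNA does not move. This scaling shifts every log2 ratio by −1.08. On it *amt3* (2.27, limma adjusted p = 5.51e-04), *amt1* (1.11, limma adjusted p = 0.00113), *isp7* (1.02, limma adjusted p = 0.00174), *isp6* (0.57, limma adjusted p = 0.00354) and *isp4* (0.56, limma adjusted p = 0.0288) were higher in the *exo2*Δ-labelled libraries than in WT. Under the same scaling *tor1* (−0.56, limma adjusted p = 0.00879) and *amt2* (−0.33, limma adjusted p = 0.0113) were lower. *tor2* (−0.26, limma adjusted p = 0.0738), *rhb1* (0.096, limma adjusted p = 0.176) and *gaf1* (−0.012, limma adjusted p = 0.916) did not pass the test. The background under this scaling is 31.7% of mRNAs higher and 32.9% lower, which the 5 and 2 of 10 are to be read against. Without WT replicate 2, *tor2* was lower as well (−0.36, limma adjusted p = 0.00866).

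The calls of *amt3*, *amt1* and *isp7* on the mRNA scale were kept without any single library. Without replicate 1 labelled *exo2*Δ, *isp6* (0.56, limma adjusted p = 0.0559), *isp4* (0.39, limma adjusted p = 0.206) and *amt2* (−0.34, limma adjusted p = 0.0845) no longer passed. Without replicate 2 labelled *exo2*Δ, *isp6* (0.58, limma adjusted p = 0.0524), *isp4* (0.73, limma adjusted p = 0.0653), *amt2* (−0.31, limma adjusted p = 0.104) and *tor1* (−0.45, limma adjusted p = 0.0934) no longer passed. The directions of these 4 genes were kept in both cases.

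**Figure D3:**
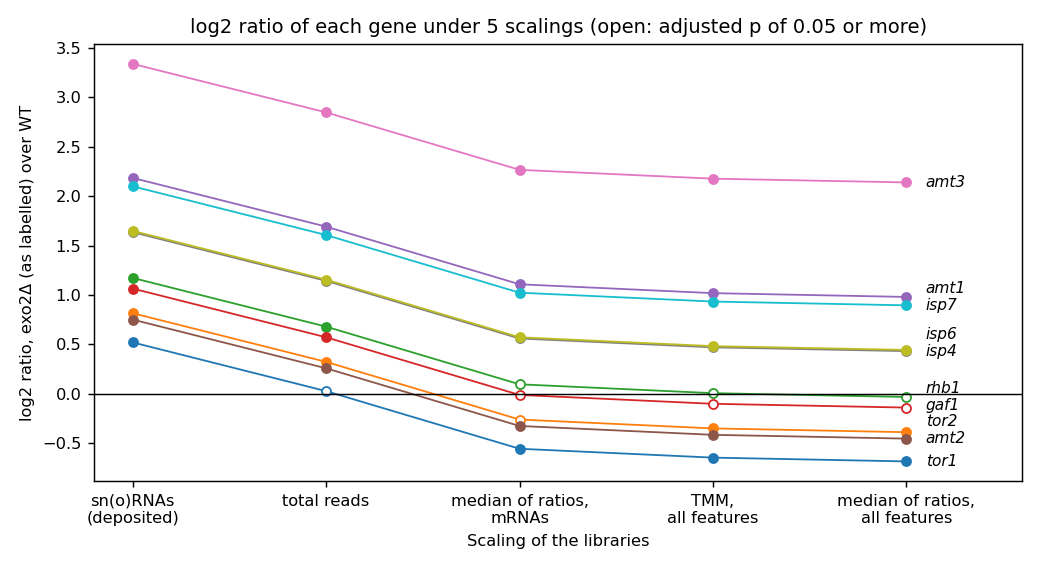
Log2 ratio, *exo2*Δ-labelled libraries over WT, of each gene under 5 scalings of the libraries. Filled points passed an adjusted p of 0.05 and open points did not. *amt3*, *amt1* and *isp7* stay well above 0 under each scaling, *isp6* and *isp4* lie nearer to it, and *tor1*, *tor2* and *amt2* are below 0 once the libraries are scaled on mRNAs or on all features.

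Antisense transcription was examined because the series was made to map XUTs. Of the 10 genes, 1 had an antisense XUT overlapping it by at least 50 nt, *tor2*, against 21.2% of the 5129 protein-coding genes. XUT1025 (chromosome II, 915284 to 916447, + strand, 1164 nt) lies wholly inside *tor2*, beginning 6000 nt from its 5′ end, and covers 15.8% of the gene, close to its 3′ end. Its density was 0.103 and 0.112 tag/nt in the *exo2*Δ-labelled libraries, from 102 and 114 reads, against 0.0305 and 0.0403 tag/nt in WT, from 42 and 52 reads. The ratio of the means, 3.04, is given as a description without a test, since XUTs were chosen by the authors for being higher in these libraries. The XUT reached 13.9% and 16.3% of the density of *tor2* in the *exo2*Δ-labelled libraries, and 7.12% and 10.5% in WT.

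In all, 10 features overlapped 7 of the genes, and *tor1*, *isp4* and *isp7* were overlapped by none. The annotated lncRNA SPNCRNA.859 lies inside *amt3* on the opposite strand and covers 75.2% of it. It had 41 and 24 reads in the *exo2*Δ-labelled libraries and 27 and 29 reads in WT, and its log2 ratio of 0.57 did not pass the test (SE 0.41, limma adjusted p = 0.225). Its density was 12.6% and 9.59% of the density of *amt3* in the *exo2*Δ-labelled libraries, against 73.3% and 77.2% in WT. Against the density over the coding exon of *amt3* it was 8.74% and 7.03% in the *exo2*Δ-labelled libraries, and 52.0% and 53.5% in WT. In WT this antisense lncRNA was thus below *amt3* in density, by a margin that depends on the stretch compared and rests on few reads.

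SPNCRNA.758, opposite to *amt2* and overlapping 71.0% of it, had 2 and 3 reads in the *exo2*Δ-labelled libraries and 0 and 2 reads in WT, too few to test. novelncTU_232, a noncoding transcription unit annotated in an earlier study and opposite to *gaf1*, had 0 reads in all 4 libraries, as did 21 of the 487 such units in the table. On the same strand, novelncTU_240 covers 400 nt at the 5′ end of *amt1* and shares reads with it, so its log2 ratio of 1.71 (SE 0.099, limma adjusted p = 6.53e-06) is not separate from that of *amt1*. Its density was 50.2% and 46.8% of that over the coding exon of *amt1* in the *exo2*Δ-labelled libraries, and 57.3% and 78.0% in WT. The ratio over this 5′ stretch was thus smaller than that over the coding sequence, a difference that was not tested.

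At the ends of the genes, the lncRNA SPNCRNA.1363 shares 47 nt with *rhb1* on the same strand (log2 ratio 1.68, SE 0.11, limma adjusted p = 9.50e-06), and SPNCRNA.834 shares 97 nt with *isp6* (log2 ratio 1.59, SE 0.15, limma adjusted p = 5.54e-05). Opposite-strand mRNAs overlapped by 53 nt in *tor2* (*cwf11*, log2 ratio 0.12), 18 nt in *rhb1* (SPBC428.15, log2 ratio 0.12) and 29 nt in *amt3* (SPAC2E1P3.01, log2 ratio 0.96). These overlaps are short, and with stranded libraries the opposite-strand mRNAs do not share reads with the genes.

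**Figure D4:**
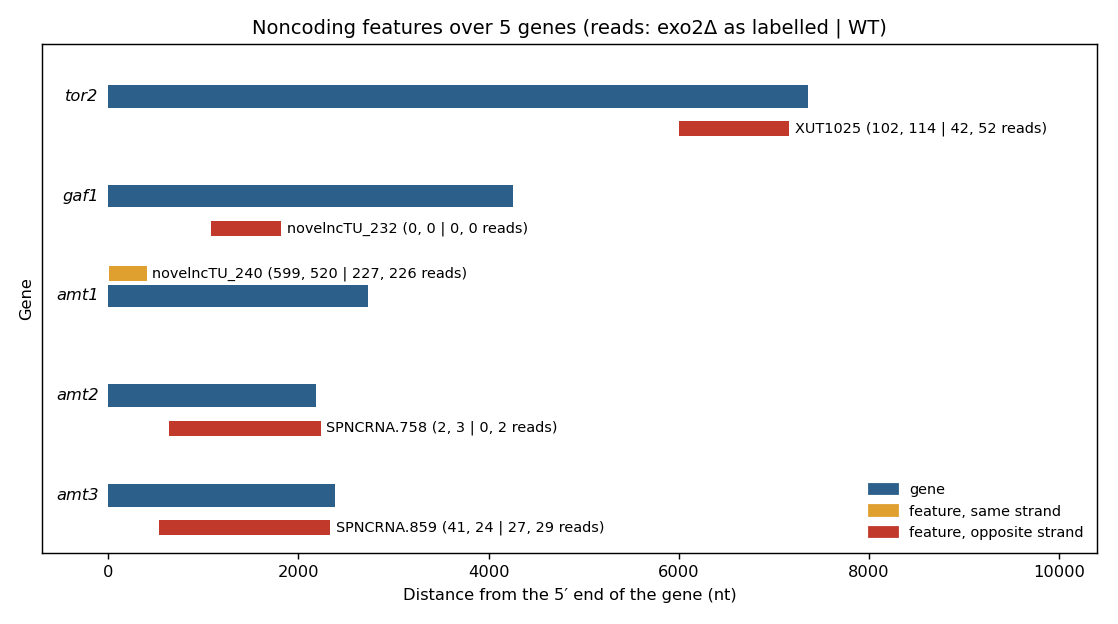
Noncoding features that overlap *tor2*, *gaf1*, *amt1*, *amt2* and *amt3* by at least 400 nt, drawn to scale from the 5′ end of each gene (nt). Numbers are reads in the 2 *exo2*Δ-labelled libraries and then in the 2 WT libraries. XUT1025 lies near the 3′ end of *tor2* with 102 and 114 reads against 42 and 52, and SPNCRNA.859 covers most of *amt3* with 41 and 24 reads against 27 and 29.

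To place the 10 genes in their pathway, 57 further genes in 8 lists were examined, of which 54 were matched in the table. On the sn(o)RNA scale 50 of the 54 rose, 0 fell and 4 did not pass the test, with a median log2 ratio of 1.10 beside 1.08 over all mRNAs tested, of which 88.1% were higher and 4.31% lower. On the mRNA scale 17 were higher, 17 lower and 20 not called, where 31.7% of all mRNAs were higher and 32.9% lower. Counts of the single lists below stand beside these same shares, and a list in which every gene rose on the sn(o)RNA scale is near the 88.1% of mRNAs that did. As a whole the pathway therefore moved with the mRNAs, and the lists differed in where their members lay.

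All 4 genes of TORC1 subunits rose (median 1.10), with *wat1*, the WD-repeat subunit shared with TORC2, at 1.66 and *toc1* at 1.48, and *mip1*, the Raptor subunit, at 0.72 and *tco89* at 0.70. All 8 genes of TORC1 regulators rose (median 1.22). Among them *npr2* and *iml1*, of the GATOR1 complex that restrains TORC1 when amino acids are scarce, had log2 ratios of 2.2 and 1.71, and *npr3*, the other gene of that complex listed, had 1.42. Of the complex that inhibits Rhb1, *tsc2* had 0.77 and *tsc1* 1.09. Outside these complexes, *vam6* of the same list had 0.93. *npr2* had 0.959 and 1.08 tag/nt in the *exo2*Δ-labelled libraries against 0.197 and 0.248 tag/nt in WT, which do not overlap. All 5 matched genes of TORC2 and its kinase arm rose (median 1.13), with *bit61* at 1.58 and *sin1* at 1.16, both subunits, *ste20*, the Rictor subunit, at 1.02, and *gad8*, the AGC kinase that TORC2 phosphorylates, at 0.96.

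Of 12 genes of TOR effectors 11 rose (median 0.85), among them *tip41* (1.60) and *igo1* (1.29), both tied to phosphatase control downstream of TORC1, and the S6 kinase gene *psk1* (0.34) and the Greatwall kinase gene *ppk18* (0.35). *gcn2*, the kinase gene of the amino acid starvation response, had a log2 ratio of 0.050 and did not pass the test (SE 0.11, limma adjusted p = 0.690). On the mRNA scale 2 of the 12 were higher and 7 lower, against 31.7% and 32.9% of mRNAs.

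The highest log2 ratio of the 54 was that of an amino acid permease gene. All 9 matched genes of amino acid transporters and their ubiquitination rose (median 1.32). *isp5*, an amino acid permease gene, had 0.199 and 0.192 tag/nt in the *exo2*Δ-labelled libraries, from 555 and 549 reads, against 0.0163 and 0.0157 tag/nt in WT, from 63 and 57 reads (log2 ratio 3.60, SE 0.19, limma adjusted p = 4.67e-06). *per1*, another permease gene, had 2.92 and 3.15 tag/nt in the *exo2*Δ-labelled libraries against 0.528 and 0.424 tag/nt in WT (log2 ratio 2.68, SE 0.11, limma adjusted p = 2.83e-06). Like *amt3* and *amt1*, *isp5* and *per1* had ratios above those of nearly all mRNAs, at 99.1% for *isp5* and 97.5% for *per1*. The lowest ratios of the list were those of *pub1*, the ubiquitin ligase gene (0.53), and *fnx2* (0.84). On the mRNA scale 5 of the 9 were higher and 1 lower, beside the same 31.7% and 32.9%.

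The enzymes of nitrogen assimilation were the list that lay lowest. Of 5 genes, *gdh2*, a glutamate dehydrogenase gene (0.82), and *ure2*, a urease gene (0.35), rose, while 3 did not pass the test. *gln1*, the glutamine synthetase gene, had 5.53 and 5.82 tag/nt in the *exo2*Δ-labelled libraries and 6.17 and 5.30 tag/nt in WT, which overlap (log2 ratio −0.012, limma adjusted p = 0.899). *gdh1*, the other glutamate dehydrogenase gene, had a log2 ratio of 0.023 (limma adjusted p = 0.734) and *glt1*, the glutamate synthase gene, one of 0.13 (limma adjusted p = 0.140). On the mRNA scale 5 of these 5 were lower, with a median of −0.94, against 32.9% of mRNAs lower.

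All 4 genes of nitrogen-starvation differentiation rose (median 1.55): *isp3*, an outer spore wall gene, at 1.73, *mei2*, the meiotic RNA-binding protein gene, at 1.62, *pat1*, the kinase gene that restrains meiosis, at 1.48, and *ste11*, the gene of the main transcription factor of sexual differentiation, at 0.89. All 7 genes of autophagy and vacuolar proteolysis rose (median 1.21), with *atg1*, the autophagy kinase gene, at 1.42 and *psp3*, a vacuolar serine protease gene, at 1.41, while *atg9* had 1.02 and *cpy1*, the carboxypeptidase Y gene, 0.26.

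**Figure D5:**
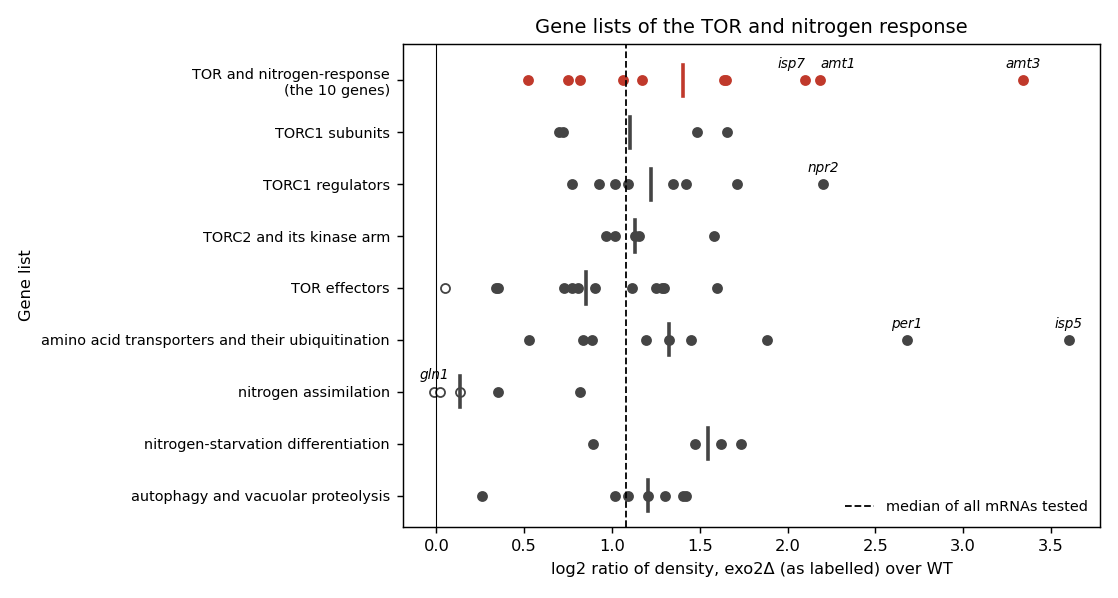
Log2 ratio of density, *exo2*Δ-labelled libraries over WT, of the 10 genes (red) and of the 54 matched genes of 8 pathway lists (black). Each point is a gene, filled where it passed an adjusted p of 0.05 and open where not, short lines are list medians, and the dashed line is the mRNA median of 1.08. *isp5* at 3.60 and *per1* at 2.68 stand far right among the transporters, and *gln1*, *gdh1* and *glt1* of nitrogen assimilation stand near 0.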

How the data were processed

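Total RNA of 4 libraries, 2 biological replicates per genotype, was depleted of rRNA and sequenced as stranded paired ends of 50 nt from 125 ng. The authors mapped reads with TopHat (ASM294v2, per the submitters' processing notes), computed a signal in tag/nt for each feature, scaled it on sn(o)RNAs, and deposited a value per library and sums over replicates; the tool that counted reads is not given in the sources used here. The sums were not used. Multiplied by length, densities were whole multiples of a library's step for 100% of nonzero values (tolerance 0.01), which gave the reads. Features with at least 10 reads over the 4 libraries were kept (8826 of 9139). limma 3.58.1 (R 4.3.3), with variances that follow the mean, was fitted on log2(density + 1.55e-04) over all features. Genotype was the only term, with Benjamini-Hochberg adjustment. The added constant lowers the ratios of low features, while a library with 0 reads can overstate them. Each of the 10 genes had at least 49 reads in every library. Values are set against TMM factors, medians of ratios, total reads, other filters and pseudocounts, limma-voom on the recovered reads, a replicate block, and each library left out. The script was tested on simulated data.

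The 10 genes and the lists were chosen with earlier results of these data known. All 10 genes, the features overlapping them, *exo2*, and the 2 highest and 2 lowest called genes of each list are named; genes that did not pass the test, *npr3* and *tsc1* were named after their values were seen. *sat1*, *sat4* and *aap1* were listed but not matched. Protein sequences were not compared here. Windows before start codons, which include annotated 5′ leaders, were read from RefSeq ASM294v3, in which the coding ends of 10 of 10 genes have the positions of the deposited table. With 2 libraries per genotype, p-values come from a model that shares variances across all features. They set each difference against a modelled spread between replicate cultures of the same strain.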

Additional observations from a re-analysis of the deposited data

How the results depend on the processing

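The direction of the log2 ratios depends on the scaling. Against the sn(o)RNA scale, total reads shift every log2 ratio by −0.49, TMM by −1.17, and the median of ratios by −1.20 over all features and −1.08 over mRNAs. In that order from TMM on, 5, 4 and 5 of the 10 genes were higher and 3, 3 and 2 lower, and 13, 11 and 17 pathway genes were higher and 21, 21 and 17 lower (5 lower with total reads). Log2 ratios turned negative under these 3 scalings for *tor1* (−0.65, −0.68, −0.56), *tor2* (−0.35, −0.39, −0.26), *gaf1* (−0.10, −0.14, −0.012) and *amt2* (−0.42, −0.45, −0.33), and for *rhb1* in the case of all features (−0.032). For *exo2*, added after seeing the data, it was −0.71, −0.75 and −0.62, and −0.036 with total reads. Scaled on all features *isp4* (0.43) was not called, and *tor1* (0.027) was not with total reads. Without a filter, with at least 100 reads, with 10 times the smallest density as pseudocount, with limma-voom and without each library, 10 of 10 genes rose. On the mRNA scale, alternatives chosen after seeing the data, leaving out a library gave 3 to 5 genes higher and 0 to 3 lower. Leaving out the libraries of a replicate number moved *tor1*/*tor2* between −0.31 and −0.28, *amt1*/*amt2* between 1.40 and 1.46, *amt3*/*amt1* between 0.84 and 1.49, and *amt3*/*amt2* between 2.24 and 2.95. Deviations of same-numbered libraries correlated at 0.283 over 5447 features, and the labels do not say what a number shares. With the replicate number as a block 10 of 10 genes and 50 pathway genes rose and 0 fell, and on the mRNA scale 5 were higher and 3 lower, *tor2* now among them (limma adjusted p = 0.0195). Depth limits *amt3* in WT most, with 49 and 50 reads.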

Other observations

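A lncRNA next to *isp7*, chosen after its values were seen, had a higher log2 ratio than the gene. SPNCRNA.968 (chromosome I, 4178278 to 4179532, − strand) lies downstream of *isp7*, within 600 nt of it, on the same strand. It had 1.11 and 1.08 tag/nt in the *exo2*Δ-labelled libraries, from 1190 and 1187 reads, against 0.139 and 0.139 tag/nt in WT, from 206 and 193 reads. The log2 ratio was 2.98 (SE 0.088, limma adjusted p = 2.01e-06), above that of 94.9% of the 1384 annotated noncoding RNA genes tested. Whether these reads belong to a separate transcript or extend from *isp7* was not tested.

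Among the other features within 600 nt of the 10 genes, those with the highest log2 ratios are given next. They too were chosen after their values were seen. The features not named had lower log2 ratios, from 0.28 (a tRNA gene near *amt1*) to 1.56 (novelncTU_233, near *gaf1*). *hva22*, 68 nt downstream of *tor1* on the same strand, had a log2 ratio of 1.96 (SE 0.075, limma adjusted p = 2.42e-06), where *tor1* had 0.52. *Tf2-3*, a retrotransposon gene 128 nt upstream of *amt3* on the same strand, had 131 and 116 reads in the *exo2*Δ-labelled libraries and 41 and 46 reads in WT (log2 ratio 1.90, SE 0.34, limma adjusted p = 0.00134). Copies of Tf2 are near-identical, so its value is uncertain. XUT1024, 445 nt from *tor2* and on the opposite strand, had 25 and 28 reads in the *exo2*Δ-labelled libraries and 7 and 8 reads in WT, given without a test.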
